A study of Mus musculus with 4 samples.

Results

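Expression of 9 genes that build the contractile actin cytoskeleton of non-muscle cells was followed during reprogramming of fibroblasts towards hepatocytes. The genes were taken by symbol, with earlier results of these data known, and are Myh9, Myh10, Myh14, Myl6, Myl12a, Myl12b, Actn1, Actn4 and Flna. All 9 were among the 55397 genes listed, and all 9 passed the minimum mean of 10 normalized counts that 15809 genes passed. Non-muscle myosin II is a hexamer of a pair of heavy chains, a pair of essential light chains and a pair of regulatory light chains, and phosphorylation of the regulatory light chains switches on its motor activity. The assembled filaments pull on actin bundles that alpha-actinin and filamin crosslink, and these stress fibres anchor at focal adhesions. Fibroblasts spread on a stiff plate are known for thick stress fibres, whereas hepatocytes and other epithelial cells keep much of their actomyosin in a belt beneath the cell junctions.

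All 4 libraries came from primary mouse embryonic fibroblasts (MEFs) of C57BL/6J embryos at E13.5 that were homozygous for a floxed allele, Prox1(fl/fl), with the cells of several embryos pooled. Every culture received the 4in1 vector of reprogramming factors, lentiviral and switched on with doxycycline, and was grown in hepatocyte culture medium until day 14. The 2 Cre libraries, labelled Prox1 KO, also received a GFP fusion of Cre recombinase, and the 2 dCre libraries, the controls labelled WT Prox1, a GFP fusion of an inactive Cre, so that floxed alleles, 4in1 and GFP were common to both groups. RNA of the whole culture was sequenced, and the comparison asked which genes respond to loss of Prox1, a homeobox transcription factor of the hepatocyte lineage. Bulk RNA cannot tell fewer cells of a type from less RNA per cell.

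Between 42469031 and 48524008 reads per library fell on genes. Prox1 itself had 72.7 and 61.6 normalized counts in Cre replicates 1 and 2 and 60.6 and 25.5 in dCre replicates 1 and 2, a log2 fold change of 0.75 (SE 0.27, limma adjusted p = 0.0936). The targeted gene was thus no lower in the Cre libraries than in the controls, and directions are given by the labels. Xist, transcribed from an inactive X chromosome, was high in both libraries of replicate 1 (14495 and 13944 normalized counts) and nearly undetected in both of replicate 2 (4.89 and 1.06). The 10 fibroblast markers examined all passed the minimum, with Col1a1 between 251990 and 300040 normalized counts. Of the 5 leukocyte markers, Adgre1 and Cd3e had 0 counts in every library, Ptprc had 6.43 to 9.77, Csf1r 71.7 to 104 and Cd68 159 to 232.

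Of the 3 heavy chain genes, Myh9 (ENSMUSG00000022443, chr15:77760587-77842175 of GRCm38, minus strand) encodes the heavy chain of myosin IIA, the main form of fibroblasts. Myh10 (ENSMUSG00000020900, chr11:68691559-68816632, plus strand) encodes that of myosin IIB, which is abundant in brain and heart. Myh14 (ENSMUSG00000030739, chr7:44605803-44670843, minus strand) encodes that of myosin IIC, known mostly from epithelial tissues. Their coding sequences, taken from the longest protein-coding transcript in GENCODE vM21, were alike enough that the longest run shared by Myh9 and Myh10 had 122 bases. It is shown because a read of 100 bases that falls inside it cannot, on its own, be assigned to 1 of the 2 genes. Reads were paired, so a mate outside the run may still tell the genes apart.
Myh9 coding bases 1381 to 1502, identical to Myh10 coding bases 1402 to 1523: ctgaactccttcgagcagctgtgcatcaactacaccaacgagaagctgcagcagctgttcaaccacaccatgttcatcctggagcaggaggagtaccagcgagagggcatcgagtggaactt
Outside this run the heavy chains were well separated. Over the aligned coding bases 74.4% were identical between Myh9 and Myh10, and only 23 of the 7334 windows of 100 bases of the Myh9 transcript also occurred in the Myh10 transcripts. Myh14 shared no such window with another gene.

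Myh9 was the dominant heavy chain gene in all 4 libraries. Myh9 had 108445 and 102747 normalized counts in Cre replicates 1 and 2, and 92630 and 97007 in dCre replicates 1 and 2. Both Cre libraries lay above both dCre libraries. The means were 105596 ± 4029 (SD, n = 2) and 94819 ± 3095 (SD, n = 2), a difference of 11.4% and a log2 fold change of 0.16 (SE 0.048, 95% interval 0.05 to 0.26) with an adjusted p of 0.0506 from limma over all genes tested, just outside the threshold of 0.05. The log2 difference was 0.23 in pair 1 and 0.08 in pair 2. Over 11 settings of the test, the adjusted p of Myh9 ran from 0.00104 to 0.576 and 3 settings passed.

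Myh10 had 19081 and 15685 normalized counts in the Cre libraries and 16303 and 15049 in the dCre libraries of replicates 1 and 2. The groups overlapped, since Cre replicate 2 was below dCre replicate 1, yet within each replicate number the Cre library was the higher. The log2 difference of Myh10 was 0.23 in pair 1 and 0.06 in pair 2. With the replicate number as a block, Myh10 rose by 10.4%, a log2 fold change of 0.14 (SE 0.044, limma adjusted p = 0.0482). The call ended without the block (adjusted p = 0.617), with edgeR (adjusted p = 0.0533) and with DESeq2 (adjusted p = 0.233).

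Myh14 moved the other way, at a low level, ranking 11805 by normalized counts among 13944 protein-coding genes tested. It had 48.8 and 49.9 normalized counts in Cre replicates 1 and 2, from 47 and 51 reads, and 146 and 66.0 in dCre replicates 1 and 2, from 159 and 62 reads. Both Cre libraries lay below both controls, but the controls themselves were 1.13 apart on the log2 scale whereas the Cre libraries differed by 0.03. Myh14 fell by 49.3%, a log2 fold change of -0.98 (SE 0.26, limma adjusted p = 0.0222). Its log2 difference was -1.56 for pair 1 and -0.40 for pair 2, so without replicate 1 the difference is smaller and has no test. Without the block the adjusted p was 0.434, and DESeq2 with the block gave 0.357.

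None of the 3 light chain genes passed the test. Myl6 (ENSMUSG00000090841, chr10:128490860-128494145, minus strand), which encodes the essential light chain, had 33578 and 30125 normalized counts in Cre replicates 1 and 2 and 32654 and 30581 in dCre replicates 1 and 2. The groups overlapped and the 2 pairs had opposite signs. Its log2 fold change was 0.0093 (SE 0.040, 95% interval -0.08 to 0.10, limma adjusted p = 0.921).

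Myl12a and Myl12b encode nearly identical regulatory light chains, the subunits that myosin light chain kinase phosphorylates. They lie side by side on the minus strand of chromosome 17, Myl12a (ENSMUSG00000024048) at chr17:70993656-71002878 and Myl12b (ENSMUSG00000034868) at chr17:70973133-70990890. Of their 516 coding bases without the stop codon, 498 were identical, or 96.5%, and the last 102 were identical throughout. The first 120 coding bases are shown as an example of how alike the pair is. Capitals mark the positions that differ, 5 of the 18 in the whole coding sequence.
Myl12a coding bases 1 to 120: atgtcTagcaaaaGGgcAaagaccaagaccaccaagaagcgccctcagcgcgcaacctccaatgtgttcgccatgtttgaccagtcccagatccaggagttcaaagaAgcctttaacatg
Myl12b coding bases 1 to 120: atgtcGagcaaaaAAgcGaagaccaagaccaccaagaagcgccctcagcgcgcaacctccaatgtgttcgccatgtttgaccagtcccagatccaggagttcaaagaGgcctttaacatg
A further annotated gene on the same strand (ENSMUSG00000117098) spans both loci and overlaps 100% of the coding bases of Myl12b and 67.1% of those of Myl12a. It had 16.5 to 39.1 normalized counts. Reads that overlap more than 1 gene, or match more than 1, may have been dropped or split, so the levels of Myl12a and Myl12b are uncertain, and that of Myl12b most of all.

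Myl12a had 6894 and 6453 normalized counts in the Cre libraries and 7077 and 6453 in the dCre libraries of replicates 1 and 2. The groups overlapped, and the libraries of replicate 2 were level. Myl12b had 128 and 137 normalized counts in the Cre libraries and 144 and 138 in the controls. Here both Cre libraries lay just below both controls, on 123 to 157 reads per library. The log2 fold changes were -0.019 for Myl12a (95% interval -0.11 to 0.07, limma adjusted p = 0.832) and -0.094 for Myl12b (95% interval -0.43 to 0.24, limma adjusted p = 0.776). The interval of Myl12b is wide enough to cover changes of the size seen for Myh10 and Actn1.

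**Figure D1:**
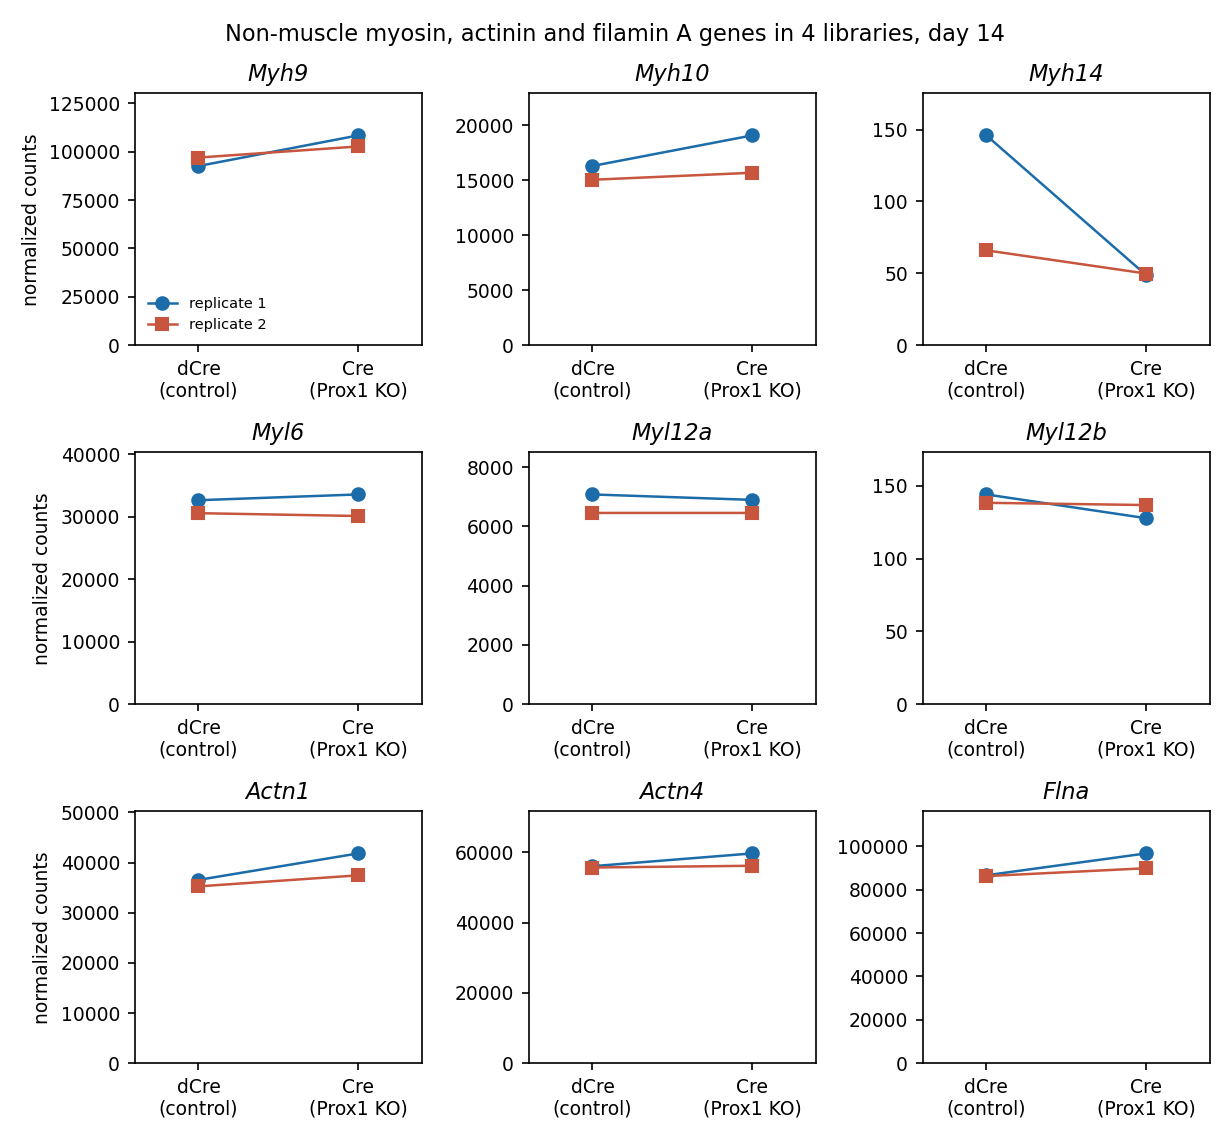
Normalized counts (y axes, each from 0) of the 9 genes in the dCre and Cre libraries at day 14, with lines joining the libraries of 1 replicate number. Myh9, Actn1, Actn4 and Flna show both Cre libraries above both dCre libraries, Myh14 drops from 146 and 66.0 to 48.8 and 49.9, and the groups overlap for Myh10, Myl6 and Myl12a.

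The 3 crosslinker genes were higher in the Cre libraries, as Myh9 and Myh10 were, and 1 of them passed the test. Actn1 and Actn4 encode the non-muscle alpha-actinins, antiparallel dimers that bundle actin filaments and set the periodic bands of stress fibres. Actn1 (ENSMUSG00000015143, chr12:80167547-80260371, minus strand) had 41825 and 37457 normalized counts in Cre replicates 1 and 2 and 36552 and 35254 in dCre replicates 1 and 2. Both Cre libraries were above both controls. Actn1 rose by 10.3%, with 39641 ± 3089 in the Cre libraries and 35903 ± 918 in the controls (SD, n = 2 each) and a log2 fold change of 0.14 (SE 0.042, limma adjusted p = 0.0428). The log2 difference of Actn1 was 0.19 in pair 1 and 0.09 in pair 2. The call held with edgeR (adjusted p = 0.0419) and ended without the block (adjusted p = 0.511) and with DESeq2 (adjusted p = 0.123). Annotated antisense genes overlap 3.21% and 3.03% of its coding bases, with 0 to 35.3 normalized counts per library against 35254 or more for Actn1.

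Actn4 (ENSMUSG00000054808, chr7:28893248-28962340, minus strand) had 59717 and 56209 normalized counts in the Cre libraries and 56085 and 55708 in the controls. The lower Cre library was above the higher control by less than the distance between the 2 Cre libraries. Its log2 fold change was 0.05 (SE 0.043, 95% interval -0.04 to 0.14, limma adjusted p = 0.511). The intervals of Actn1 and Actn4 overlapped, and the difference between the 2 actinins was not tested.

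Flna (ENSMUSG00000031328, chrX:74223461-74249820, minus strand) encodes filamin A, which joins actin filaments at wide angles and links them to integrins. Flna had 96713 and 89892 normalized counts in Cre replicates 1 and 2 and 86650 and 86262 in dCre replicates 1 and 2. The controls of the 2 replicates were level. Both Cre libraries lay above both controls, and the log2 fold change of 0.11 (SE 0.046, 95% interval 0.01 to 0.21) had an adjusted p of 0.156 from limma. No window of 100 bases of the Flna transcript occurred in another gene.

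In all, 3 of the 9 genes passed an adjusted p of 0.05 from limma with the block, 2 higher (Myh10 and Actn1) and 1 lower (Myh14) in the Cre libraries. Of all genes tested, 11.4% passed, 5.09% higher and 6.29% lower. The groups did not overlap for 6 of the 9, against 44.4% of all genes, with 4 of them higher and 2 lower in the Cre libraries. The median log2 fold change was 0.05 for the 9 genes and -0.0022 for all genes tested. Without the block, 0 of the 9 and 0 of all genes passed in limma, while 1783 genes had an unadjusted p under 0.05, and on the recovered reads with the block DESeq2 called 0 of the 9 and edgeR 3 (Myh9, Myh14 and Actn1).

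The size of the differences also varied with the pair. The absolute log2 difference was larger in pair 1 than in pair 2 for 9 of 9, which held for 53.2% of all genes tested. All 9 genes were read in the same 4 libraries, so they are not independent observations of this. Cre replicate 1 had the highest value of the 4 libraries for 6 of 9 (29.6% of all genes) and dCre replicate 1 for the other 3. In 7 of 9 both pairs had the same sign, against 65.8% of all genes. Myl6 and Myl12a were the exceptions, each with a log2 difference of under 0.05 in either pair.

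**Figure D2:**
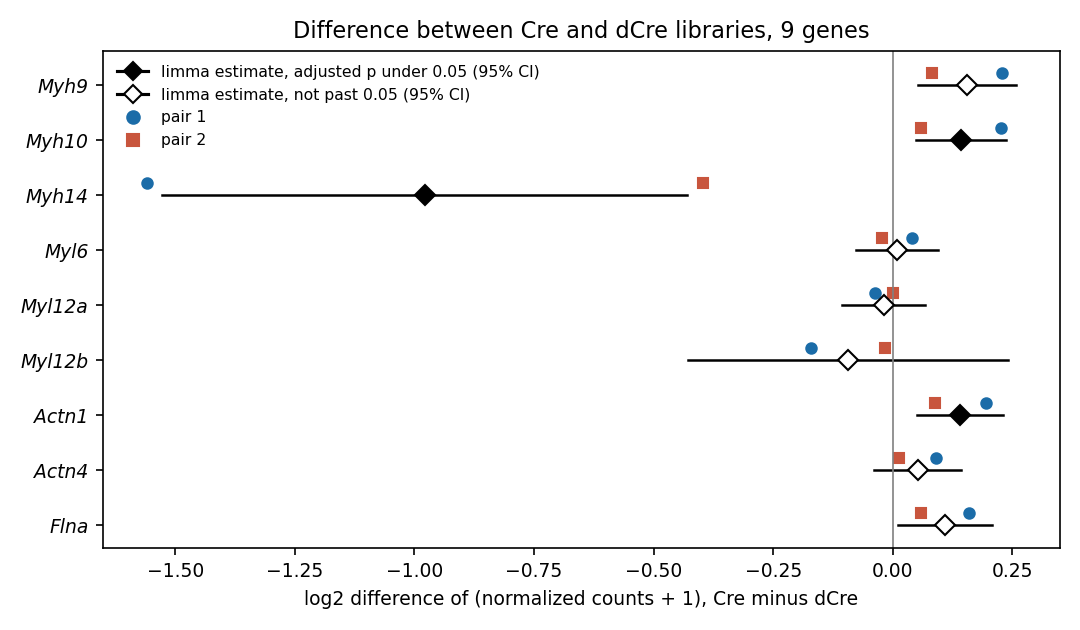
Log2 difference of normalized counts plus 1 between Cre and dCre libraries (x axis) for the 9 genes. Diamonds are limma estimates with their 95% intervals, filled where the adjusted p is under 0.05, and circles and squares are the differences within pairs 1 and 2. For every gene the circle of pair 1 lies farther from 0 than the square of pair 2, and Myh14 is the one large difference, at -0.98.

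To compare the genes with each other, normalized counts were divided by the length of the longest protein-coding transcript in kb. On this scale Myl6 was highest, with a mean over the 4 libraries of 19025 normalized counts per kb, followed by Actn4 (14684), Myh9 (13481), Flna (10629), Actn1 (10116), Myl12a (3469), Myh10 (2122), Myl12b (63.8) and Myh14 (12.0). The neighbours Actn4 and Myh9 overlapped over the libraries, as did Flna and Actn1. The order of the 5 highest depended on the length used: with the whole exonic length of each gene Myl6 (9958) stayed first but Flna (9562) and Actn4 (9292) came before Myh9 (7751) and Actn1 (6827). By normalized counts alone, Myh9 ranked 31 and Flna 37 among 13944 protein-coding genes tested, and Myh14 ranked 11805.

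Shares within each subunit class were also taken per length, and those of the 2 abundant heavy chains were close between the groups. Myh9 gave 86.4% ± 1.17 (SD, n = 2) of heavy chain transcripts in the Cre libraries and 86.3% ± 1.10 (SD, n = 2) in the controls, and Myh10 13.5% and 13.6%. Both shares differed more between replicate numbers than between groups, with Myh9 at 85.6% (Cre) and 85.5% (dCre) for replicate 1 and 87.2% and 87.0% for replicate 2. Myh14 gave 0.0441% and 0.0484% in the Cre libraries and 0.154% and 0.0677% in the controls. With exonic lengths the share of Myh9 was 83.1% and 82.9%. These shares leave out Myh11, the smooth muscle heavy chain, which is also a class II myosin. With Myh11 counted, a choice made after the data were seen, it took 4.51% and 4.37% in the Cre libraries and 2.99% and 3.10% in the controls, and Myh9 took 82.6% ± 1.21 and 83.6% ± 1.01 (SD, n = 2 each), with overlap between the groups.

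Among regulatory light chains, Myl9, the form of smooth muscle and myofibroblasts and no member of the 9, had the largest share as counted. It gave 71.0% and 70.0% in Cre replicates 1 and 2 and 66.3% and 68.1% in dCre replicates 1 and 2. Myl12a gave 28.5% and 29.4% in the Cre libraries and 33.1% and 31.3% in the controls. The groups did not overlap for either, and 2 libraries against 2 cannot give a two-sided exact permutation p below 0.333. With exonic lengths Myl9 gave 80.4% and 79.6% in Cre replicates 1 and 2 and 76.7% and 78.1% in dCre replicates 1 and 2. The levels of Myl12a and Myl12b are uncertain, as stated above, so the shares of this class are uncertain too. Reads of Myl12a or Myl12b lost in counting would raise the share of Myl9, and this loss was not measured. Of the alpha-actinins, Actn1 gave 41.5% ± 0.85 in the Cre libraries and 40.0% ± 0.50 in the controls (SD, n = 2 each), again without overlap.

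**Figure D3:**
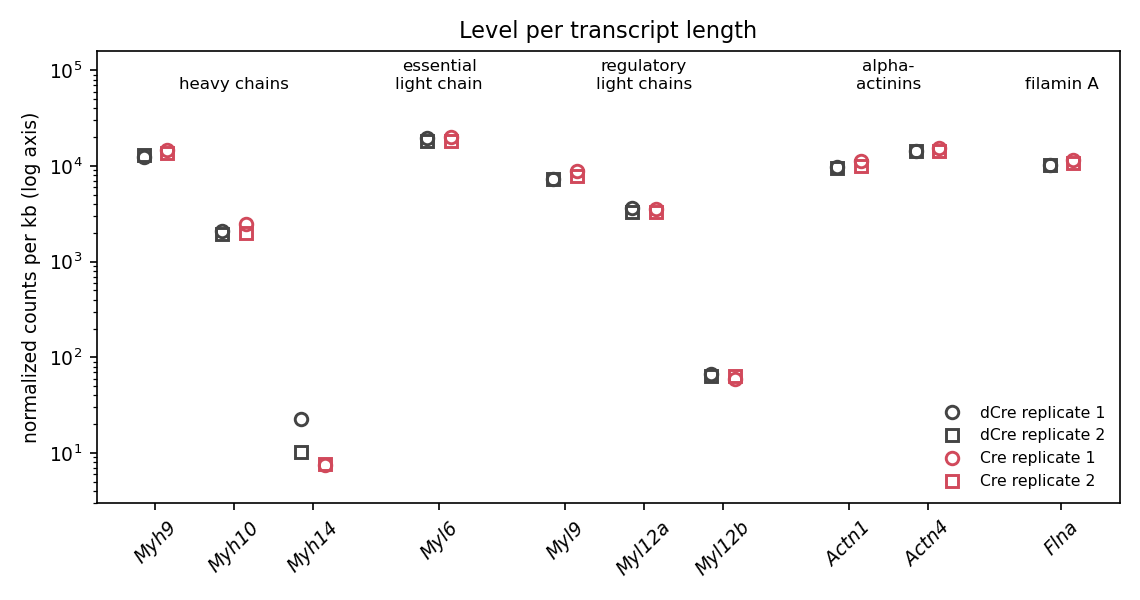
Normalized counts per kb of the longest protein-coding transcript (log axis) for the 9 genes and Myl9, by subunit class, in the 4 libraries (grey dCre, red Cre, circles replicate 1, squares replicate 2). Myh9 exceeds Myh10 and Myh14 in every library, and Myl12b and Myh14 lie far below the other genes, at means of 63.8 and 12.0.

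The genes whose pattern over the 4 libraries lay closest to that of Myh9, among 7061 protein-coding genes averaging 1000 normalized counts or more, were Arhgap27, Ifi27 and Abl2. Their Euclidean distances from Myh9 on centred log2 values were 0.0121, 0.0174 and 0.0192. Myh14 averaged 77.7 normalized counts, below this minimum, so genes at its own level were not among the candidates. The candidates nearest to Myh14 were Rspo2, Dlk1 and Trf, at 0.723, 0.731 and 0.785. Each was highest in dCre replicate 1 and lower in both Cre libraries than in both controls.

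Around the 9 genes, the regulators of contractility were the closest in function. Of 22 such genes, 4 rose and 0 fell (18.2% called, against 11.4% of all genes), and the median log2 fold change was 0.08. Rock2, a kinase that phosphorylates the regulatory light chain and inhibits its phosphatase, had 27571 and 23765 normalized counts in the Cre libraries and 23168 and 19448 in the controls of replicates 1 and 2. It rose by 0.27 on the log2 scale (SE 0.039, limma adjusted p = 0.000349), with 0.25 in pair 1 and 0.29 in pair 2. Rhob rose by 0.25, Cdc42bpa, the kinase MRCK alpha, by 0.15, and Mprip, which brings the phosphatase to stress fibres, by 0.13. The related kinases did not pass, with 0.09 for Rock1 (limma adjusted p = 0.279) and 0.07 for Mylk, the myosin light chain kinase (limma adjusted p = 0.398). DESeq2 with the block called Rhob and Rock2 only. A correction for transcript length and GC content, added after the data were seen, also called only these, and the median was then 0.03.

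Of 28 actins, tropomyosins and crosslinkers of stress fibres, 8 rose and 1 fell (32.1% called, against 11.4% of all genes), with a median log2 fold change of 0.09. Acta2, smooth muscle alpha-actin and the classical marker of myofibroblasts, had 54786 and 50364 normalized counts in the Cre libraries and 43934 and 43363 in the controls, without overlap, a log2 fold change of 0.27 (limma adjusted p = 0.000783). Cnn1 (calponin 1, 0.29), Palld (palladin, 0.28) and Flnc (filamin C, 0.27) had the other large rises. Myl9 rose by 0.20 (SE 0.044, limma adjusted p = 0.0067), from 8242 and 8188 to 9992 and 8950 normalized counts. Actb, the cytoplasmic beta-actin and the most abundant of the list, had 0.09 (limma adjusted p = 0.221). Tagln2 was the gene that fell, by 0.13. With DESeq2 and the block 6 of the list rose (Acta2, Myl9, Tpm2, Tagln, Flnc and Palld) and 0 fell.

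Of 20 focal adhesion genes, 7 rose and 0 fell (35% called, against 11.4% of all genes), with a median log2 fold change of 0.08. Tln2 (talin 2, 0.30), Tns1 (tensin 1, 0.29), Nexn (nexilin, 0.29) and Enah (Mena, 0.23), which link integrins to actin or elongate its filaments, had the largest rises. Tln1, the abundant talin, had 0.08 (limma adjusted p = 0.295). DESeq2 with the block called 4 of them, Tln2, Zyx, Tns1 and Lpp.

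Of 23 genes of filament assembly and turnover, 6 rose and 1 fell (30.4% called, against 11.4% of all genes), with a median log2 fold change of 0.04. The LIM kinases Limk1 and Limk2, which inactivate cofilin, rose by 0.23 and 0.22, and the formin Diaph2 by 0.20. The phosphatase Ssh2, which reactivates cofilin, fell by 0.22 (limma adjusted p = 0.0110), while its relative Ssh1 rose by 0.17. Gsn (gelsolin) had -0.05 and Cfl1 (cofilin 1) 0.03, neither past the threshold. DESeq2 with the block called Dstn and Limk2 only.

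Serum response factor and its myocardin-related partners switch on many actin genes when free actin is scarce. Of 6 genes of this group 1 rose (16.7%, against 11.4% of all genes), Myocd (myocardin, the cofactor of smooth muscle), with 1613 and 1271 normalized counts in the Cre libraries and 1102 and 947 in the controls, a log2 fold change of 0.49 (SE 0.062, limma adjusted p = 0.000108). It was also called by DESeq2 with the block. Mrtfa had 0.15 (limma adjusted p = 0.0507), Mrtfb 0.12 (limma adjusted p = 0.148) and Srf 0.02 (limma adjusted p = 0.845).

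The CArG box is the element that serum response factor binds. Only its exact form was searched, CC and GG around a run of A or T, 10 bases in all. Boxes with any other base were not counted. The search covered both strands of the windows of 250 bases before to 50 after each RefSeq gene start (GRCm38.p6). All 9 genes had a window, and 1 of the 9, Myl6, held a box, against 1.81% of the 27025 genes with a window. It lay in the window of the second annotated start of Myl6, inside the gene. Of the related lists, a box was held by 5 of 23 stress fibre genes with a window (Actg1, Myl9, Cnn2, Fhl2 and Lima1), 3 of 14 focal adhesion genes (Vcl, Fermt2 and Trip6), 6 of 19 muscle genes, 1 of 20 contractility regulators (Rnd3), 1 of 5 genes of the serum response factor group (Srf), 1 of 18 unconventional myosins (Myo1e) and 0 of 22 genes of filament turnover. The site is shown with those of Myl9 and Vcl (vinculin, a focal adhesion protein), with the box in capitals and 30 bases in all, on the strand of the gene.
Myl6, chr10:128493040-128493069, minus strand: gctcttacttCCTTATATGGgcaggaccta
Myl9, chr2:156775293-156775322, plus strand: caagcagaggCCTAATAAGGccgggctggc
Vcl, chr14:20929161-20929190, plus strand: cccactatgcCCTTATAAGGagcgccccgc
The first base of the box was 50 bases before the start in Myl6, 161 in Myl9 and 227 in Vcl. Of these genes, Myl9 rose, whereas Myl6 had a log2 fold change of 0.0093 and Vcl of 0.08 (limma adjusted p = 0.264). The windows of Acta2, Cnn1, Flnc and Palld, which rose, held no box of the exact form, nor did those of the other 8 genes described. Whether they hold a box with a differing base was not searched.

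Muscle relatives of the 9 genes were mostly at low counts. Of 22 muscle myosins, actinins and actins, 10 passed the minimum, 2 rose and 0 fell (20.0% of those tested, against 11.4% of all genes), and Myl3 had 0 counts in every library. Those that rose belong to smooth muscle: Myh11, its myosin heavy chain, had 5278 and 4745 normalized counts in the Cre libraries and 2945 and 3136 in the controls, a log2 fold change of 0.72 (SE 0.054, limma adjusted p = 8.26e-07), and Actg2, its gamma-actin, had 0.77 (limma adjusted p = 7.01e-05). The other tested genes, Myh1, Myh2, Myh7b, Myl1, Myl4, Mylpf, Actn3 and Acta1, lay between 6.84 and 136 normalized counts in every library, with log2 fold changes from -0.36 to 0.46 and adjusted p of 0.154 or more from limma. DESeq2 called Myh11 and Actg2 with the block and without it.

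**Figure D4:**
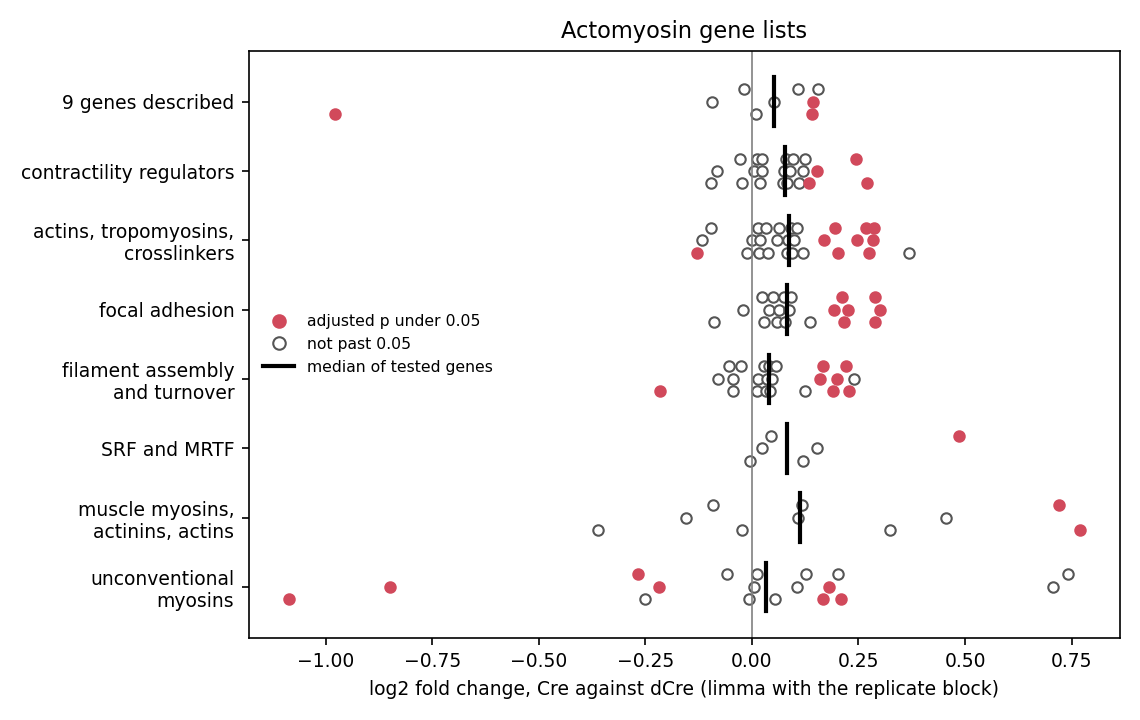
Log2 fold change between Cre and dCre libraries (x axis) of each tested gene in the 9 genes and in 7 lists of related genes. Filled points passed an adjusted p of 0.05 in limma with the replicate block and black bars are medians, which run from 0.03 to 0.11 in the 7 lists, beside -0.0022 for all genes tested.

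Markers of other cells moved between the same libraries, in which 11.4% of all genes tested were called, 5.09% higher and 6.29% lower. Of the smooth muscle markers, 6 of 8 rose, 5 of which (Myh11, Actg2, Acta2, Cnn1 and Tagln) are counted above. Smtn (log2 fold change -0.11, limma adjusted p = 0.168) and Synm (-0.03, limma adjusted p = 0.845) were lower without passing. The summed level of the 8 was 95993 to 104750 normalized counts in the Cre libraries and 83781 to 85203 in the controls. The 4 fibroblast markers called among 10, Col3a1, Pdgfra, Dcn and Lum, fell. Another 4, Col1a1, Thy1, Vim and Fn1, were higher in the Cre libraries without passing. The median log2 fold change of the 10 was -0.07. Their summed level overlapped, with 1478600 and 1711100 normalized counts in the Cre libraries and 1458700 and 1775600 in the controls. Of the epithelial markers, 8 of 9 tested fell. Their summed level was 12676 to 18138 in the controls and 7556 to 8651 in the Cre libraries. Of the hepatocyte markers, 7 of 9 tested fell. Alb (log2 fold change -0.10, limma adjusted p = 0.158) and Apoa2 (-0.17, limma adjusted p = 0.756) were lower without passing. Myh14 and the epithelial sum were each lower in both Cre libraries than in both controls. Within the controls their order differed. In dCre replicates 1 and 2 the sum was 12676 and 18138, and Myh14 was 146 and 66.0. Of the 8 skeletal myocyte markers 3 were tested and 1 rose, Des (desmin, the intermediate filament of muscle), with 1553 and 1560 normalized counts in the Cre libraries and 1125 and 1312 in the controls (log2 fold change 0.36, limma adjusted p = 0.00167). The skeletal muscle determinants Myod1, Myog and Myf5 of the same list had at most 0.977 normalized counts in any library. The part of these cell types in the differences of the 9 genes was not tested.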

How the data were processed

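RNA-seq libraries (paired reads of 100 bases) of 2 Cre and 2 dCre cultures at day 14 were grouped by their labels. Reads were mapped to mm10 with STAR, and the authors deposited normalized counts, a signal per gene, that is, read counts scaled by the DESeq2 size factor of the library. The tool that counted reads, its strand setting and the annotation release are not given in the sources used here. A deposited table of the authors' comparison (base means, shrunken log2 fold changes, p-values before and after independent hypothesis weighting) was not used. The smallest positive value of each library gave size factors of 0.939 to 1.09, and 100% of positive values were whole multiples of it (tolerance 0.01), so count tests were run on the recovered reads as alternatives. The reads carry no molecular identifiers, so the counts and intervals are not corrected for amplification bias.

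The 15809 of 55397 genes averaging 10 normalized counts or more were tested with limma 3.58.1 in R 4.3.3 using an intensity trend, the replicate number as a block, two-sided tests, p-values adjusted by Benjamini-Hochberg and a 0.05 threshold. Values were log2(normalized counts + 1), which understates changes of low genes. The block follows the study's methods, where the MEF line is a covariate. That the numbers stand for lines is not stated. Same-numbered libraries deviated together (correlation across genes 0.402, genes not being independent replicates). The labels do not say how same-group libraries were obtained, and the spread between these libraries may in part be technical. SEs, intervals and p-values from limma rest largely on variance shared across genes (total degrees of freedom of at least 15.2). They can thus be smaller than the spread of a gene's own pairs would give. By a chi-square test of reads, same-group libraries differed beyond sampling noise in 34.3% (Cre) and 35.4% (dCre) of genes.

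The 9 genes and all lists were chosen with earlier results of these data known. From each list the named genes were up to 4 called genes with the largest change in the same direction in both pairs and the 2 with the most counts, with Myl9, Mylk, Rock1, Rock2 and all tested muscle genes. Ssh1, Zyx, Lpp, Dstn, Tagln, Tagln2, Tpm2, Srf, Vcl, Des, Xist and the genes listed with a CArG box were named after their values were seen. Positions, lengths and shared windows came from GENCODE vM21 (55137 of 55397 identifiers matched) and promoter windows from RefSeq. Alternatives were no block, pseudocounts of 0.1 and 10, other filters, quantile normalization, edgeR 4.0.16, DESeq2 1.42.0, 1 pair left out and, added after the data were seen, a correction for transcript length and GC content and Myh11 among the heavy chains. Scripts were tested on simulated data.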

Additional observations from a re-analysis of the deposited data

How the results depend on the processing

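The number of genes past the threshold, 1798 with the block, was 0 without the replicate block, 471 in DESeq2 with the block and 159 in DESeq2 without it, and stayed within 1.5 times under the other 7 settings. Of the 9 genes, 3 passed in the reported fit. The number was 0 without the replicate block, with quantile normalization and with DESeq2 in either form, 1 with a pseudocount of 10 (Myh14) and 1 with a minimum mean of 100 normalized counts (Actn1, where Myh14 was not tested), 5 with all genes above 0 (Myh9, Myh10, Myh14, Actn1 and Flna), and 3 with edgeR, where Myh9 passed in place of Myh10. The correction for transcript length and GC content, chosen after the data were seen, left Myh14 and Actn1 past the threshold, brought Myh9 to 0.093 (adjusted p = 0.0982) and Myh10 to 0.092 (adjusted p = 0.104), and reversed the sign of Myl12a, at 0.013. With this correction 2152 of 15797 genes were called. So were 2 of 22 contractility regulators (median log2 fold change 0.03) and 12 of 28 stress fibre genes (median 0.09). For focal adhesion it was 8 of 20 (median 0.08) and for filament turnover 7 of 23 (median 0.06). The causes were not tested. With either replicate left out, the log2 fold change of Prox1 stayed above 0, and that of Myh14 was -1.56 or -0.40, with no test. Myh14 rests on 47 to 159 reads per library and Myl12b on 123 to 157, while the other 7 genes have at least 6062.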

Other observations

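The unconventional myosins, those outside class II, moved in both directions. Of 23 genes 18 were tested, and 3 rose and 4 fell (38.9% called, against 11.4% of all genes), with a median log2 fold change of 0.03. Myo5b, a motor of apical recycling endosomes in epithelia, had 87.3 and 110 normalized counts in Cre replicates 1 and 2 and 178 and 247 in dCre replicates 1 and 2, a log2 fold change of -1.09 (SE 0.15, limma adjusted p = 0.000280). Myo7b, a myosin of the brush border, fell by 0.85, Myo7a by 0.27 and Myo6 by 0.22. Myo1c, the most abundant of the list, rose by 0.21 (limma adjusted p = 0.00309), from 39551 and 36800 to 46351 and 42022 normalized counts, and Myo10 and Myo5a rose by 0.18 and 0.17. Myo9b had 0.13 (limma adjusted p = 0.0559). DESeq2 with the block called Myo1c and Myo5b only, and without the block limma called 0 of the 18, as of all genes. Epithelial markers fell between the same libraries, and their part in the fall of Myo5b and Myo7b was not tested.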
